A study of Rattus norvegicus and Bos taurus with 12 samples.

Results

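The genes that carry a cell through mitosis were compared in rat heart muscle cells and calf heart fibroblasts. Members were chosen by gene symbol, with 1 rule for both species that takes the kinesin motors, the centromere and kinetochore proteins, the spindle checkpoint, the mitotic cyclins and kinases, condensin, and a few regulators and markers of division. The rule met 82 distinct symbols of the 7989 listed in either cell type. Of these, 70 were among the 7052 genes listed for the rat cells and 55 among the 2115 listed for the calf cells, and 43 were in both.

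RNA sequencing was used to read 12 libraries, 3 per group. Cardiac fibroblasts (Cfib) were grown from the right ventricle of neonatal calves. Control calves were housed at the ambient altitude of Denver (CO Cfib). The others were kept at reduced atmospheric pressure until they had pulmonary hypertension (PH Cfib). The study's methods describe Cfib of low passage that were grown to confluence, held without serum to condition medium and then harvested or passaged. Whether the RNA came from cells harvested at that point is not stated. Adult rat ventricular myocytes (ARVM) came from healthy Sprague Dawley rats and were either freshly isolated and untreated or kept for 7 days in medium conditioned by PH Cfib (PH-CM ARVM). The labels of the samples describe the treatment differently, as serum of cows living at low or high altitude, and the groups are named here as the study's methods name them. The ARVM groups differ in time in culture as well as in medium, and ARVM cultured without PH-CM were not analysed here, so the part of each cannot be told apart. The Cfib libraries came from 3 animals in each group. Whether the ARVM libraries of a group come from separate rats is not stated, so for ARVM p-values measure the spread between these libraries only.

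Mitosis is driven by CDK1 bound to a B-type cyclin. Kinesin motors such as KIF11 then push the spindle poles apart, the NDC80 complex ties kinetochores to microtubules, and the spindle checkpoint holds the cell until every chromosome is attached. The anaphase-promoting complex, with CDC20 and the enzyme UBE2C, next marks cyclin B for destruction, and PRC1, ECT2 and KIF23 help to divide the cell. Most adult cardiac myocytes no longer divide, whereas fibroblasts in culture can. Many of these genes are known to be switched on together late in the cycle by FOXM1, MYBL2 and the MuvB complex, through promoter elements called the CHR (here the letters TTTGAA) and the CCAAT box.

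The promoters below, of Cdk1, Kif23, Cdc20, Ccnb2 and Kif5b, are printed because they show the shared letters of genes that rose in PH-CM ARVM and, last, those of a cargo kinesin that fell. Each is the RefSeq sequence on assembly GRCr8 of the rat, 5′ to 3′ on the strand of the gene, from 250 bases before to 50 after the start. Capitals mark TTTGAA and CCAAT, or their reverse complements TTCAAA and ATTGG. They lie at chr20:19265043-19265342 on the plus strand for Cdk1, chr8:71320535-71320834 on the minus strand for Kif23, chr5:137255750-137256049 on the minus strand for Cdc20, chr8:79981609-79981908 on the minus strand for Ccnb2 and chr17:56185136-56185435 on the plus strand for Kif5b.
Cdk1: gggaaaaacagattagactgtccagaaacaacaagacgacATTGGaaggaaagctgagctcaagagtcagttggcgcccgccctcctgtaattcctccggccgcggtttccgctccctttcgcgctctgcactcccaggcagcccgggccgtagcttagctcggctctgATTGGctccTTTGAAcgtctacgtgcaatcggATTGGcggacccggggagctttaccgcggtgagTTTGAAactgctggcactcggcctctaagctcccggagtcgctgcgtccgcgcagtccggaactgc
Kif23: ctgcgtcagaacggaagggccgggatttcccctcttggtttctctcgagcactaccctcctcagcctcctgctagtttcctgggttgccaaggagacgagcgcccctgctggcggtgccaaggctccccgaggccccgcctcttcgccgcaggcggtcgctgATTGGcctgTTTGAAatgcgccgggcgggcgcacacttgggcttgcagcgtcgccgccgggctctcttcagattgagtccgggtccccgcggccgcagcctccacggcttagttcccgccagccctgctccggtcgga
Cdc20: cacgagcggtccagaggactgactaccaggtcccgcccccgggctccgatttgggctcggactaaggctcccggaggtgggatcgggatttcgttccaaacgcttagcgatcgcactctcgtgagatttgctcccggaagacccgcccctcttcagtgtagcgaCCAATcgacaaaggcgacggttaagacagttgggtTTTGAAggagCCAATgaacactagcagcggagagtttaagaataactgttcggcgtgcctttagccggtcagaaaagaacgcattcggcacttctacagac
Ccnb2: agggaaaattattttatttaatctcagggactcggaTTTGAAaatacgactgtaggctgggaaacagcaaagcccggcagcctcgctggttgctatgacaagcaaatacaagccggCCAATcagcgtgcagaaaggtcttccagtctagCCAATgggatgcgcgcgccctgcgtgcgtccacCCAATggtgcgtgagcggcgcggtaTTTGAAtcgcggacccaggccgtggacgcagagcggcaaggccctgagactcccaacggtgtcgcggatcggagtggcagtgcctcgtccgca
Kif5b: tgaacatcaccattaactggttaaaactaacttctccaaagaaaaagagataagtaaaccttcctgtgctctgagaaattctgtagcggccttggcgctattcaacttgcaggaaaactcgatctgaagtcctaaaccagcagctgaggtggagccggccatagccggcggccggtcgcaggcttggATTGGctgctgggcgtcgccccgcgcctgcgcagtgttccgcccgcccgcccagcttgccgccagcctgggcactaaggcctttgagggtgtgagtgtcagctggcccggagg
The first 4 held TTTGAA as well as CCAAT, and Kif5b held CCAAT alone. Of 48 members with a role in division that rose in PH-CM ARVM and had a promoter in the table, 32 (66.7%) held TTTGAA on either strand, against 11.3% of the 5282 listed rat genes with a promoter and 18.1% of all 27457. None of the 9 cargo kinesins and members matched by name alone with a promoter held it, too few promoters to set against 11.3%. Among members with a role in division that fell, Cenpc held TTTGAA and Cdc25a did not. Roles were assigned with earlier results of these data known, so these shares are a description. CCAAT was in 58.3% of the 48 and 55.6% of those 9, against 37.1% of the listed genes, and CCAAT at 2 or more places was in 41.7% of the 48 and 13.5% of the listed genes. Both elements stood in 20 of the 48 (41.7%) and in 4.45% of the listed genes. The sites for E2F factors TTTCCCGC, TTTCGCGC, TTTGCCGC and TTTGGCGC were found in 4.17% of the 48 and 3.90% of the listed genes. TTTGAA and CCAAT can share at most 1 base at an end. A match describes the letters of these windows, and no binding was measured. Promoters were matched for 59 of the 70 rat members.

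The ARVM values are read counts divided by a factor per library, called normalized counts here, and they are not scaled by gene length, so levels are compared only within a gene. Between 12122463 and 18842171 reads per library fell on the listed genes. The Cfib values were read as scaled by gene length and library, although the study's methods describe normalized counts for both species. The depth of those libraries is unknown. Both sets of listed genes had been selected by the authors for a difference between the same groups, and the libraries of the groups did not overlap in 100% of them. Genes not listed were not read as unchanged or absent. Of 124 protein-coding rat genes in GRCr8 whose symbols meet the rule, 55 were not listed, among them Cenpa, Cenpe, Kif4a, Kif14 and Kif18a.

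Markers of other cells moved with the ARVM groups. The summed normalized counts of 9 listed cardiomyocyte markers of 10, such as Myh6 and Tnnt2, were 1311370 to 1375640 in freshly isolated ARVM and 140692 to 170645 in PH-CM ARVM, and 8 of the 9 were lower. All 10 fibroblast markers were higher, with sums of 4298 to 5316 against 99912 to 146639. Of these, Thy1 had no reads in freshly isolated ARVM con4 and con6, and Fbln1 and the smooth muscle marker Cnn1 had none in con4. All 8 macrophage markers were higher, with sums of 192 to 299 against 2492 to 3450, and Ptprc and C1qc each had no reads in 2 freshly isolated libraries. Of 7 smooth muscle and pericyte markers 5 were higher, with sums of 3690 to 4313 against 31348 to 49755, and 7 of 8 endothelial markers were lower, with sums of 8837 to 10519 against 3770 to 4347. The erythroid genes Hbb and Hba1 summed to 1941 to 2315 in freshly isolated ARVM and had no reads in PH-CM ARVM. Their part in the results for the mitosis genes was not tested. In bulk RNA, a change in the number of cells of a type and a change in RNA per cell cannot be told apart. In Cfib, 3 of 10 fibroblast markers were listed (COL1A2, POSTN and FBLN1), all higher in PH Cfib, with sums of 1994 to 2647 in CO Cfib and 6406 to 6702 in PH Cfib, and no cardiomyocyte, erythroid or lymphocyte marker was listed. Of 8 macrophage markers 4 were listed, 3 higher, with sums of 7.76 to 11.03 in CO Cfib and 9.47 to 10.1 in PH Cfib, and C1QA and C1QB were listed at 0 in every CO library. Smooth muscle and pericyte markers had 5 of 7 listed, 4 higher in PH Cfib, with sums of 97.4 to 133 in CO Cfib and 225 to 236 in PH Cfib, and of the endothelial markers ERG alone was listed, higher in PH Cfib.

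The first comparison asked how the transcriptome of ARVM kept in PH-CM differed from that of untreated ARVM. Most division genes rose in PH-CM ARVM, from low or no reads in freshly isolated ARVM, and of the 70 listed members 61 were higher and 9 lower. Differences are given as log2 fold changes (log2FC) of the normalized count + 1, with their standard error (SE), from limma, a moderated test fitted on all listed genes with p adjusted over them by Benjamini-Hochberg and a threshold of 0.05. All 70 members passed, but so did 97.6% of all listed genes, so passing says little about the members. Direction and size are therefore read beside all listed genes, of which 53.9% passed as higher and 43.7% as lower. With a log2FC of at least 1 in size asked for as well, 56 members were higher and 1 lower, against 32.3% and 16% of all listed genes. The members' median log2FC was 3.30, also with genes without control reads at their lower bound, against 0.37 over all listed genes. A log2FC of at least 3 was reached by 40 of the 70 members and by 13.5% of all listed genes, and one of at least 5 by 22 members and 3.96% of all listed genes. The members fell into 58 with a role in division, 9 kinesins that carry cargo and 3 that met the rule by name alone. These roles were assigned with earlier results of these data known, so the split describes the members and tests nothing. Cenpj, Cdca4 and Cdca7, which rose, were kept among the 58, while 2 of the 3 matched by name fell. Of the 58, 56 were higher, with a median log2FC of 3.74. Their summed normalized counts were 5602, 5256 and 5133 in freshly isolated ARVM con4, con5 and con6 and 19972, 15709 and 21564 in PH-CM ARVM ha2, ha209 and ha211. The mean sum was 3.58-fold higher.

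**Figure D1:**
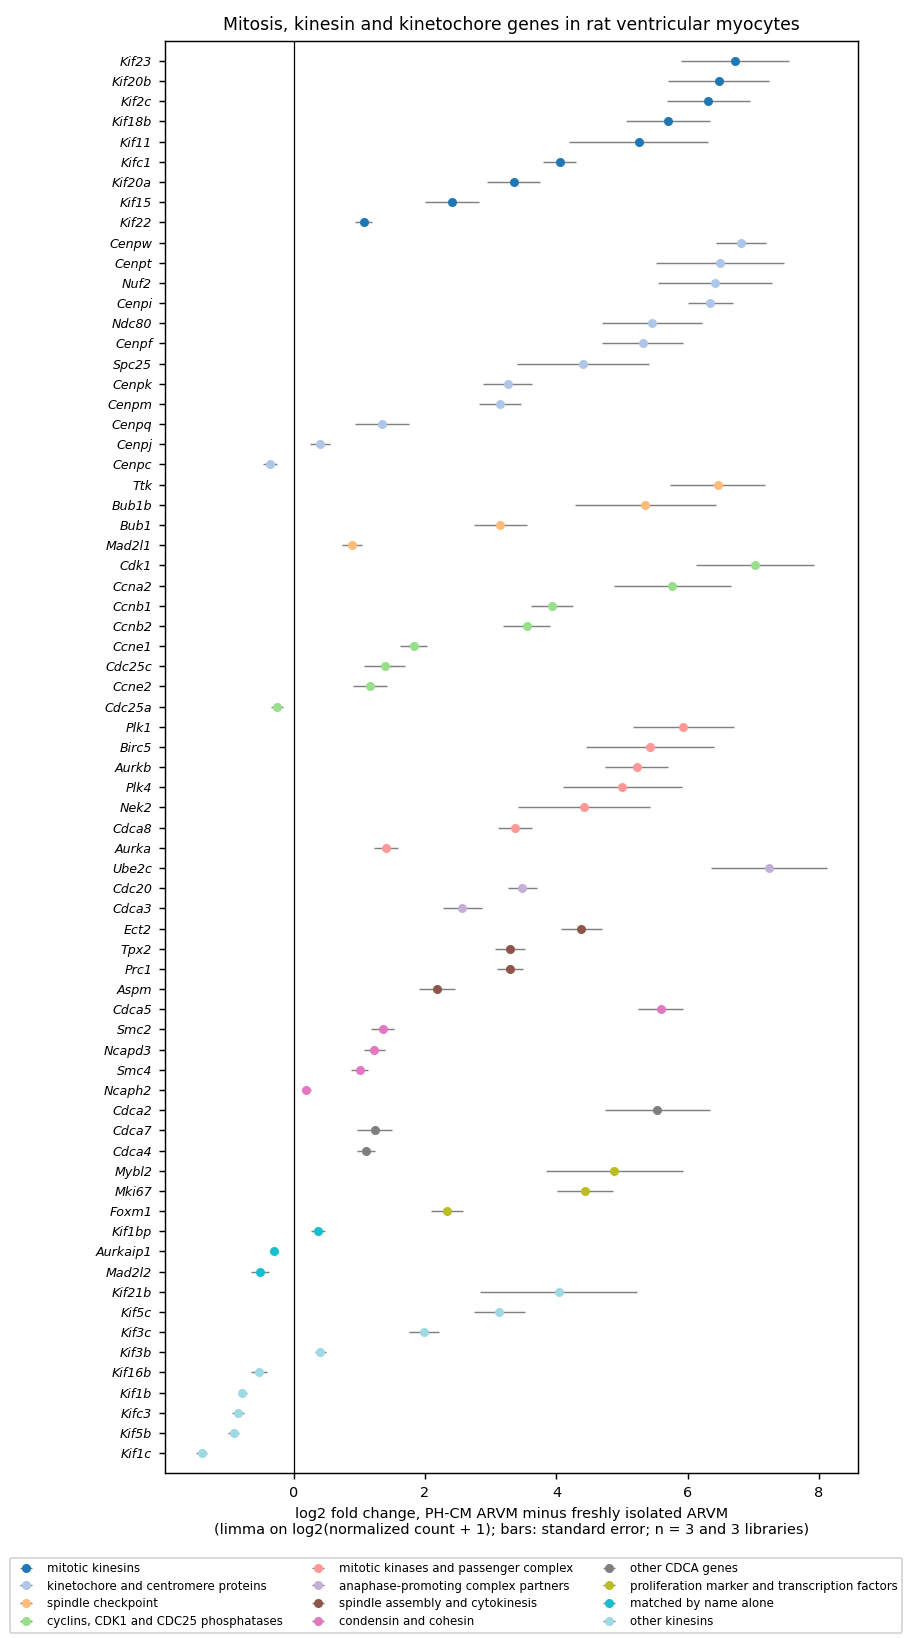
Log2 fold change (horizontal axis, PH-CM ARVM minus freshly isolated ARVM) of the 70 listed members, 1 row per gene and 1 colour per role, with the limma standard error as bars. Points right of the line at 0 are the 61 members higher in PH-CM ARVM, and the cargo kinesins at the bottom lie on both sides of it; points of genes without control reads (Cdca5, Cenpi and Cenpw) depend on the 1 added before the logarithm.

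CDK1 and its cyclins came from low levels. Cdk1, the kinase that starts mitosis, had 11.1, 8.57 and 0 normalized counts in freshly isolated ARVM con4, con5 and con6 and 663, 405 and 948 in PH-CM ARVM ha2, ha209 and ha211. The lowest PH-CM library was far above the highest fresh one. Its log2FC was 7.03 (SE 0.89, limma adjusted p = 0.000179, n = 3 and 3), and 8.22 or 5.35 with 0.1 or 10 added before the logarithm in place of 1. Ccnb1, cyclin B1, had 23.7, 25.7 and 20.7 against 449, 232 and 482, a log2FC of 3.93 (SE 0.32, limma adjusted p = 1.44e-05). Here the freshly isolated libraries lay within a narrow band and each had reads. Ccna2, cyclin A2 of S phase and early mitosis, rose by 5.77 on the log2 scale and Ccnb2 by 3.54. Without con6 the log2FC was 5.88 for Cdk1 and 4.74 for Ccna2, and without con4 it was 7.68 and 6.63. The E cyclins of the step into S phase rose less, Ccne1 by 1.82 and Ccne2 by 1.16. Among the CDC25 phosphatases, which remove the brake on CDKs, Cdc25c rose by 1.39 while Cdc25a was lower, at 659 ± 2.53 (SD, n = 3) against 552 ± 50.9. The log2FC of Cdc25a was −0.26 (limma adjusted p = 0.0277) and its call was lost without any of con4, con5, con6, ha2 or ha211 (limma adjusted p up to 0.0827, and 0.00785 to 0.0827 over all alternatives). Over the 8 genes of this role the median was 2.68.

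The partners of the anaphase-promoting complex rose. Ube2c, its ubiquitin-conjugating enzyme, had 0, 9.64 and 0 normalized counts in freshly isolated ARVM and 400, 244 and 370 in PH-CM ARVM, a log2FC of 7.24 (SE 0.88, limma adjusted p = 0.000138). Only 9 reads stood behind its level in fresh ARVM, so the size of its fold is loosely set, and it was 4.77 with 10 added before the logarithm and 8.37 without con5, which held those reads. Cdc20, the activator of the complex, was better measured, at 76.0, 50.3 and 64.0 against 821, 553 and 785, an 11.3-fold higher mean (log2FC 3.48, SE 0.22). Cdca3, which helps entry into mitosis, rose by 2.57.

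The kinetochore showed the same direction, with 11 of 12 members higher and a median of 4.86. Ndc80 and Nuf2, which form the microtubule-binding arm of the NDC80 complex, each had reads in freshly isolated ARVM con6 alone, at 6.20 and 9.30 normalized counts. In PH-CM ARVM, Ndc80 had 82.4, 66.4 and 108 and Nuf2 had 178, 149 and 238. The groups did not overlap for either gene, as in 100% of the listed ARVM genes. The log2FCs were 5.46 and 6.42, or 6.41 and 7.54 without con6. Spc25 of the same complex rose by 4.41 and Cenpf of the outer kinetochore by 5.31. Leaving out con6 gave 3.14 for Spc25 and 4.72 for Cenpf, while the highest values were 5.35 for Spc25 without con5 and 6.05 for Cenpf without con4. In the inner centromere network, Cenpi and Cenpw had no read in any freshly isolated library and means of 81.7 ± 17.3 and 116 ± 39.1 (SD, n = 3) in PH-CM ARVM. Against a floor of 3 reads over the group they were at least 69.0-fold and at least 98.2-fold higher. Cenpt rose by 6.49 (5.86 without con4 or con6 and 7.76 without con5), Cenpk by 3.26 and Cenpm by 3.14. Cenpq rose by 1.35 (limma adjusted p = 0.0143), a call that was lost without ha2 (0.0549, and 0.00496 to 0.0549 over all alternatives). Cenpc, which anchors the network to centromeric chromatin, was the exception and was lower, at 416 ± 23.5 against 324 ± 12.5 (log2FC −0.36, limma adjusted p = 0.0132). Cenpj, a centriole protein in spite of its name, changed by 0.40 (limma adjusted p = 0.0288). Its call was lost without con4, con6, ha2 or ha209 (limma adjusted p up to 0.0665, and 0.00962 to 0.0665 over all alternatives).

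All 4 spindle checkpoint genes were higher. Ttk, the kinase that starts the checkpoint signal, had 0, 0 and 5.17 normalized counts in freshly isolated ARVM and 172, 111 and 214 in PH-CM ARVM, a log2FC of 6.46, or 7.33 without con6. Bub1b rose by 5.36 (3.93 without con4 and 6.14 without con5) and Bub1 by 3.15. Mad2l1, whose product inhibits CDC20, already stood at 221 ± 33.7 (SD, n = 3) in freshly isolated ARVM and rose by 0.89. The 7 mitotic kinases and passenger complex genes were all higher, with a median of 5.01. Plk1, needed throughout mitosis, had 0, 4.28 and 8.26 normalized counts in freshly isolated ARVM and 230, 165 and 292 in PH-CM ARVM. Its groups were far apart, with a log2FC of 5.94 (5.0 without con4 and 6.61 without con6). Aurkb and its partners Birc5 (survivin) and Cdca8 (borealin) rose by 5.22, 5.42 and 3.37, and Birc5 stood at 4.15 without con4 and 6.07 without con6. Aurka, the aurora kinase of the spindle poles, was at 82.7 ± 8.54 in freshly isolated ARVM and rose by 1.41. Plk4 of centriole duplication rose by 5.01 and Nek2 of centrosome separation by 4.42. These too rested on few control reads, since Plk4 was at 3.84 without con6 and 5.63 without con4, and Nek2 at 3.11 and 5.27.

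The genes of the spindle midzone and cytokinesis and those of chromosome condensation rose by unlike amounts. Prc1, which bundles the microtubules of the midzone, had 90.2, 87.8 and 78.5 normalized counts in freshly isolated ARVM and 892, 648 and 1046 in PH-CM ARVM, a 10.1-fold higher mean. Ect2, which activates RhoA for the contractile ring, rose by 4.38 on the log2 scale, Tpx2 of spindle assembly by 3.30 and Aspm of the spindle poles by 2.18. The condensin subunits had reads in every freshly isolated library, with means of 143 for Ncapd3 to 999.9 for Ncaph2, and moved less, Smc2 by 1.35, Ncapd3 by 1.23 and Smc4 by 1.0. Ncaph2 changed by 0.19 (limma adjusted p = 0.0331), and its call was lost without con5, con6, ha2 or ha211, without the mean-variance trend and with edgeR (TMM) or DESeq2 on the reads (adjusted p up to 0.104, and 0.0134 to 0.104 over all alternatives). Cdca5, sororin, which protects cohesion, had 0 reads in freshly isolated ARVM and a mean of 47.5 ± 7.72 (SD, n = 3) in PH-CM ARVM, at least 40.2-fold higher. Of the other CDCA genes, Cdca2 rose by 5.54, Cdca7 by 1.23 and Cdca4 by 1.10. The proliferation marker Mki67 had 44.3, 42.8 and 14.5 normalized counts in freshly isolated ARVM and 656, 557 and 848 in PH-CM ARVM (log2FC 4.44, SE 0.42). The transcription factors of the late cycle rose as well, Mybl2 by 4.88 and Foxm1 by 2.33. Without con6 the log2FC was 3.70 for Mybl2 and 4.5 for Cdca2, and without con4 that of Mybl2 was 6.06.

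The kinesins were divided by role, with earlier results of these data known. All 9 mitotic kinesins were higher, with a median of 5.25. Of the 9 cargo kinesins 4 were higher and 5 lower, with a median of −0.53. That split was near the one of all listed genes, of which 53.9% passed as higher and 43.7% as lower. Kif23, which bundles midzone microtubules for cytokinesis, had 7.91, 0 and 0 normalized counts in freshly isolated ARVM and 273, 159 and 237 in PH-CM ARVM, a log2FC of 6.72 (SE 0.83). Kif20b of cytokinesis rose by 6.47, Kif2c, a microtubule depolymerase at the centromere, by 6.31, and Kif18b by 5.70. With 1 freshly isolated library left out, Kif23 reached 7.77 (con4), Kif20b 7.44 (con5) and Kif2c 6.97 (con5), while Kif2c was at 5.64 without con6 and Kif18b at 4.96 without con4. Kif11, the motor that separates the poles, rose by 5.25 (3.86 without con5 and 6.08 without con6) and Kif15, which can stand in for it, by 2.41. Kifc1, which clusters poles, rose by 4.05, Kif20a by 3.35 and the chromosome-bound Kif22 by 1.06. Kif1c, a carrier of vesicles, went the other way, with 18073, 20191 and 21013 normalized counts in freshly isolated ARVM and 7829, 6837 and 7747 in PH-CM ARVM. The groups did not overlap, as in 100% of the listed ARVM genes. The mean was 2.64-fold lower (log2FC −1.40, SE 0.083, limma adjusted p = 2.84e-06). Kif5b, a conventional kinesin heavy chain of most tissues, had a log2FC of −0.92, Kifc3 of −0.84, Kif1b, which carries mitochondria, of −0.78 and Kif16b of endosomes of −0.53. The 4 that were higher were Kif21b (4.04), Kif5c (3.13), Kif3c (1.99) and Kif3b (0.40), of which Kif5c and Kif21b are best known from neurons. The size for Kif21b was loosely set, at 2.44 without con4 and 4.99 without con5, and at 2.92 with edgeR (TMM) and 3.03 with DESeq2 on the reads. Summed over the 9 cargo kinesins, normalized counts were 28268 to 30301 in freshly isolated ARVM and 12844 to 14180 in PH-CM ARVM, 2.16-fold lower on average. Most of this sum was Kif1c, with means of 19759 and 7471 against mean sums of 29340 and 13596. The sum therefore does not describe the class, of which 4 genes rose. Of the 3 members matched by name alone, Mad2l2, a DNA repair factor, had a log2FC of −0.51, Aurkaip1, a mitochondrial protein, of −0.30 and Kif1bp, a kinesin-binding protein, of 0.37.

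**Figure D2:**
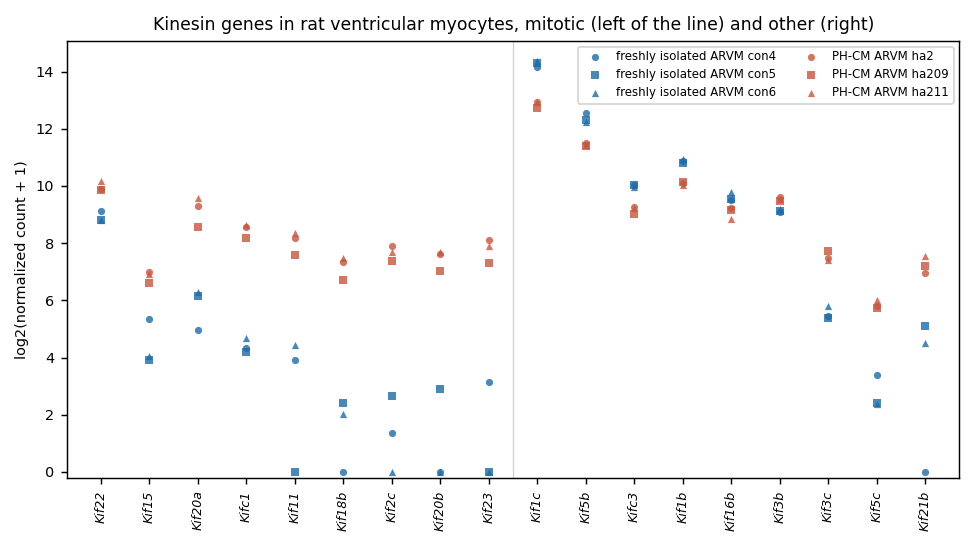
Log2(normalized count + 1) of each of the 6 ARVM libraries for the 9 mitotic (left) and 9 cargo (right) kinesin genes, with colour for the group and marker shape for the library. PH-CM libraries lie above freshly isolated ones for every mitotic kinesin, and below them for Kif1c, Kif5b, Kifc3, Kif1b and Kif16b. The groups did not overlap in 100% of the listed ARVM genes. Levels are not scaled by gene length and are to be compared within a gene.

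Freshly isolated ARVM held few reads of many of these genes. No read was found in all 3 freshly isolated libraries for 3 members, in 2 of them for 7 and in 1 for 14, and 46 had reads in each. Of the 61 members that rose, 24 had at least 1 freshly isolated library without reads, and their median coefficient of variation was 46.0% in freshly isolated ARVM and 20.2% in PH-CM ARVM, against 9.74% and 10.1% over all listed genes. Among the PH-CM libraries, ha209 was lowest in 53 of these 61 members and ha211 highest in 36. Over the 3887 listed genes higher in PH-CM ARVM, ha209 was lowest in 52.5% and ha211 highest in 50.6%. The summed fibroblast and macrophage markers were also lowest in ha209 and highest in ha211. Their part in the order of the libraries was not tested. Without ha209 or any other single library, between 58 and 60 members passed as higher and 8 or 9 as lower, and the median log2FC ran from 3.15 to 3.46. The fold of 22 of the 70 members moved by over 1.5 times when con4, con5 or con6 was left out, in 13, 9 and 18 of them respectively, and in none when a PH-CM library was. Each of the 22 still passed, though the listed genes had been selected for a difference between these same libraries.

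The second comparison asked how Cfib of PH calves differed from those of CO calves. Of the 55 listed members, 54 were lower and 1, KIFC2, was higher in PH Cfib. Log2(value + 1) was tested with limma as for ARVM. All 55 passed, as did 97.5% of all listed genes, while 39.4% of all listed genes passed as lower and 58.2% as higher. The members' median log2FC was −2.42, against 0.33 over all listed genes. With a log2FC of at least 1 in size asked for as well, 49 members were lower and none higher, against 14.3% and 19.7% of all listed genes. The log2FC was −2 or lower in 34 members and 112 listed genes, and −3 or lower in 10 members and 28 listed genes. After rescaling by the median of ratios, which shifted all listed genes by a median of −0.27 on the log2 scale, 840 listed genes passed as higher and 869 as lower in place of 1230 and 833, and the members were still 54 lower and 1 higher. Summed over the 54 members with a role in division, values were 877, 1161 and 1153 in CO Cfib 1, 2 and 3 and 159, 158 and 160.1 in PH Cfib 1, 2 and 3. The PH libraries were almost level, and the mean sum was 6.70-fold lower.

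UBE2C fell most among the members, by the log2FC and by the fold of means. Its value was also the highest of any member in CO Cfib, a rank between genes that depends on the values being scaled by length. It had 71.9, 103 and 120 in CO Cfib 1, 2 and 3 and 2.81, 2.22 and 3.50 in PH Cfib. The mean was 34.5-fold lower, with a log2FC of −4.67 (SE 0.21, limma adjusted p = 7.59e-06, n = 3 and 3). CCNB1, cyclin B1, had 36.2, 48.9 and 59.5 against 1.57, 1.78 and 1.65, a log2FC of −4.18 (SE 0.17, limma adjusted p = 5.82e-06) and a mean 29.0-fold lower. No PH library came near a CO library for either gene. Because 1 is added before the logarithm, the log2FC understates falls to values near or below 1, and CENPF, with a log2FC of −3.23, had a mean 31.3-fold lower. CDC20 fell from 38.3 ± 9.63 (SD, n = 3) to 1.48 ± 0.409, a log2FC of −3.96. The log2FC was −3.52 for CCNA2, −3.19 for CCNB2 and −2.70 for CDK1, which kept a value of 4.03 ± 0.556 in PH Cfib. CDC25B (−1.39) and CDC25C (−1.35) fell less. The E cyclins of entry into S phase fell least, with −1.16 for CCNE2 and −0.52 for CCNE1, the latter from 4.98 ± 0.604 to 3.16 ± 0.400. When the PH libraries, which lay close together, were averaged into 1, the calls of CCNE1 (limma adjusted p = 0.0809, 0.00106 to 0.0809 over all alternatives) and of MAD2L1BP (0.0689, and 0.000542 to 0.0689) were lost.

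**Figure D3:**
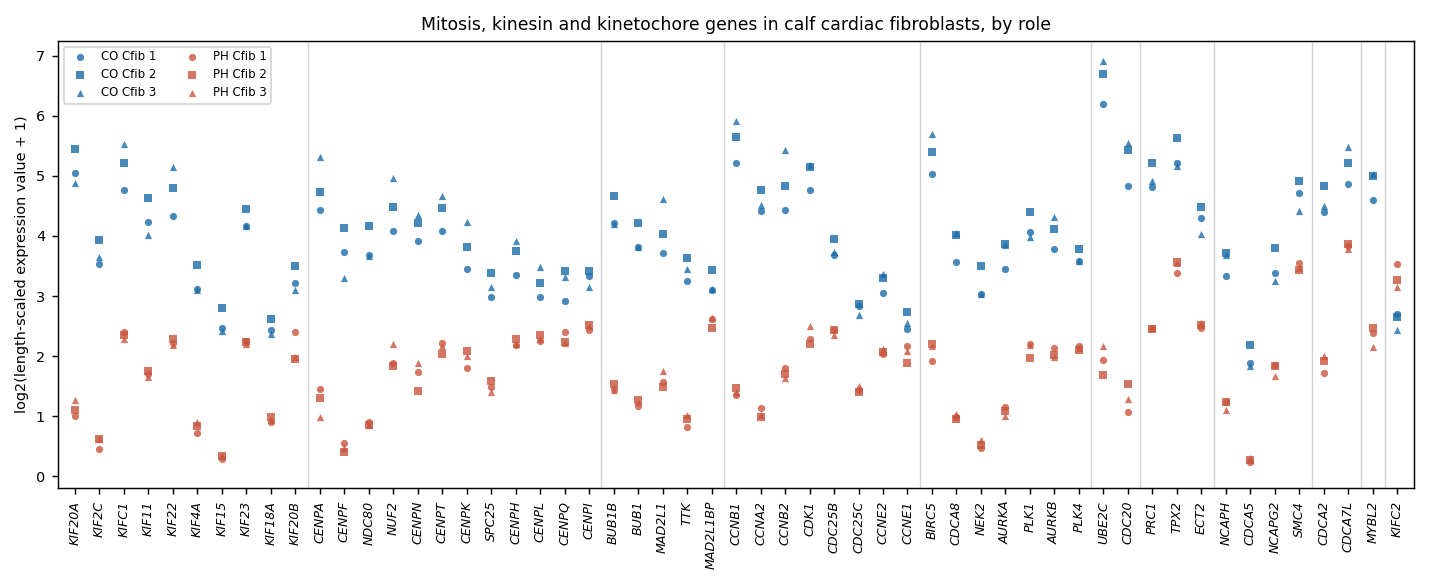
Log2(value + 1), on an expression scale read as length-scaled, of each of the 6 Cfib libraries for the 55 listed members, with grey lines between roles, colour for the group and marker shape for the library. Each CO library lies above each PH library for the 54 members that were lower, and the order is turned for KIFC2 at the right edge. The groups did not overlap in 100% of the listed Cfib genes, so the separation is not particular to the members.

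All 10 mitotic kinesins listed were lower in PH Cfib, with a median of −2.47. KIF20A, which brings the passenger complex to the midzone, had 32.1, 42.8 and 28.3 in CO Cfib and 1.01, 1.14 and 1.42 in PH Cfib, a log2FC of −4.00 (SE 0.16). KIF2C (log2FC −3.14), KIFC1 (−2.83), KIF11 (−2.59), KIF22 (−2.53) and KIF4A (−2.42) followed. KIF15 had a log2FC of −2.24, but its mean went from 4.98 to 0.253, 19.7-fold lower, against 8.79-fold for KIFC1 and 8.38-fold for KIF11. The smallest falls on either scale were those of KIF23 (log2FC −2.03), KIF18A of chromosome alignment (−1.53) and KIF20B (−1.16). The 1 cargo kinesin listed, KIFC2, a minus-end motor, was higher, with 5.53, 5.29 and 4.43 in CO Cfib and 10.5, 8.64 and 7.84 in PH Cfib (log2FC 0.71, SE 0.13, limma adjusted p = 0.00207). Its groups did not overlap, as in 100% of the listed Cfib genes.

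The 12 kinetochore and centromere genes listed were all lower, with a median of −2.07 and a wide range. CENPA, the histone that marks the centromere, had 20.5, 25.5 and 38.6 in CO Cfib and 1.73, 1.48 and 0.989 in PH Cfib, a log2FC of −3.57 (SE 0.24). CENPF had a log2FC of −3.23 and by means fell more than CENPA, 31.3-fold against 20.2-fold. The parts of the NDC80 complex were at −2.97 (NDC80), −2.53 (NUF2) and −1.68 (SPC25). In the inner centromere network the log2FC was −2.47 for CENPN, −2.27 for CENPT, −1.87 for CENPK and −1.45 for CENPH. At the other end lay CENPL (−0.94), CENPQ (−0.93) and CENPI (−0.81), the last of which went from 8.85 ± 0.905 (SD, n = 3) to 4.59 ± 0.155.

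Among checkpoint genes, BUB1B (log2FC −2.89), BUB1 (−2.72), MAD2L1 (−2.51) and TTK (−2.51) had the larger falls, while MAD2L1BP, which silences the checkpoint, was at −0.64. BUB1B had 17.7, 24.3 and 17.5 in CO Cfib and 1.73, 1.89 and 1.71 in PH Cfib. Here too the groups did not overlap, which held for 100% of the listed Cfib genes. The kinases and the passenger complex lay between −1.51 for PLK4 and −3.28 for BIRC5, with CDCA8 at −2.89, NEK2 at −2.66, AURKA at −2.64, PLK1 at −2.03 and AURKB at −2.02. PLK1 had 15.7, 20.1 and 14.9 in CO Cfib and 3.60, 2.93 and 3.57 in PH Cfib. In cytokinesis and the spindle, PRC1 was at −2.52, TPX2 at −1.84 and ECT2 at −1.76. If the values are scaled by length, TPX2 kept 1 of the highest among the members in PH Cfib, 10.3 ± 0.753, beside SMC4 at 10.2 ± 0.441 and CDCA7L at 13.2 ± 0.395. The condensin subunits NCAPH, NCAPG2 and SMC4 had log2FCs of −2.38, −1.70 and −1.19, and CDCA5, sororin, had −1.70. By means CDCA5 fell most of these, from 2.95 to 0.205, 14.4-fold lower, against 8.50-fold for NCAPH and 4.21-fold for NCAPG2. CDCA2 was at −2.70, CDCA7L at −1.37 and MYBL2, the transcription factor of the late cycle, at −2.54. MKI67 and FOXM1 were not listed for Cfib.

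The CO libraries did not order the genes alike. CO Cfib 1 was the highest in none and the lowest in 35 of the 54 members that fell, and CO Cfib 2 was the highest in 33 and the lowest in none. CO Cfib 3 was the highest in 21, among them UBE2C, CCNB1, CCNB2, CDC20, CENPA and MAD2L1, and the lowest in 19, among them KIF20A, KIF11, CENPF, PLK1 and TPX2. Over the 853 listed genes lower in PH Cfib, CO Cfib 1 was the highest in 20.0%, CO Cfib 2 in 33.4% and CO Cfib 3 in 46.5%. The median coefficient of variation of the 54 members was 18.5% in CO Cfib and 9.21% in PH Cfib, against 13.7% and 5.01% over all listed genes. Without each of the 6 libraries in turn, 54 members still passed as lower. The listed genes had been selected for a difference between these same libraries, and 97.5% of them passed. The count therefore cannot show whether a single library decided a call.

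**Figure D4:**
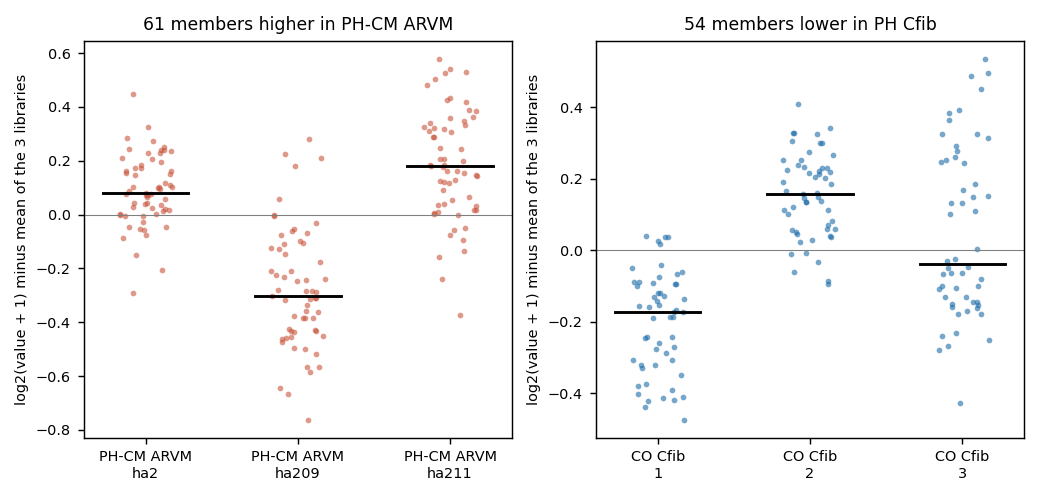
Deviation of each gene's log2(value + 1) from the mean of its group, by library, for the 61 members higher in PH-CM ARVM (left, PH-CM libraries) and the 54 lower in PH Cfib (right, CO libraries); points are genes, spread sideways at random, and bars are medians. Most points of PH-CM ARVM ha209 and of CO Cfib 1 lie below 0, and those of CO Cfib 3 fall into values above and below it.

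The 43 genes listed for both cell types were set side by side. Each was higher in PH-CM ARVM and lower in PH Cfib, and each passed the test in both. Of all 1178 symbols listed for both, 26.5% passed in this pair of directions. The species, the cell type and the contrast differ between the cell types, so the sizes are given as values and their difference was not tested. Across the 43 genes, which are not independent replicates, Pearson's r between the log2FCs was −0.27 and Spearman's rho −0.22. Ube2c had the largest log2FC of the 43 in both cell types (7.24 in ARVM and −4.67 in Cfib), but its place in ARVM depends on the setting. Cdk1 passed it with 10 added before the logarithm (5.35 against 4.77), and Cenpi with 0.1 added (9.65 against 9.49). With edgeR (TMM) on the reads Cenpi (9.39), Cdca5 (8.61), Cdk1 (6.76) and Kif23 (6.69) lay above Ube2c (6.51), and with DESeq2 Cenpi (8.51), Cdca5 (7.72) and Cdk1 (6.69) lay above it (6.66). Some genes ranked differently. Aurka was at 1.41 in ARVM and −2.64 in Cfib, Kif22 at 1.06 and −2.53, and Mad2l1 at 0.89 and −2.51. In the other direction, Cenpi, without control reads in ARVM, was at −0.81 in Cfib, and Kif20b was at 6.47 and −1.16. Ccne1 (1.82 and −0.52), Ccne2 (1.16 and −1.16), Cdc25c (1.39 and −1.35), Smc4 (1.0 and −1.19) and Cenpq (1.35 and −0.93) had small values in both.

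**Figure D5:**
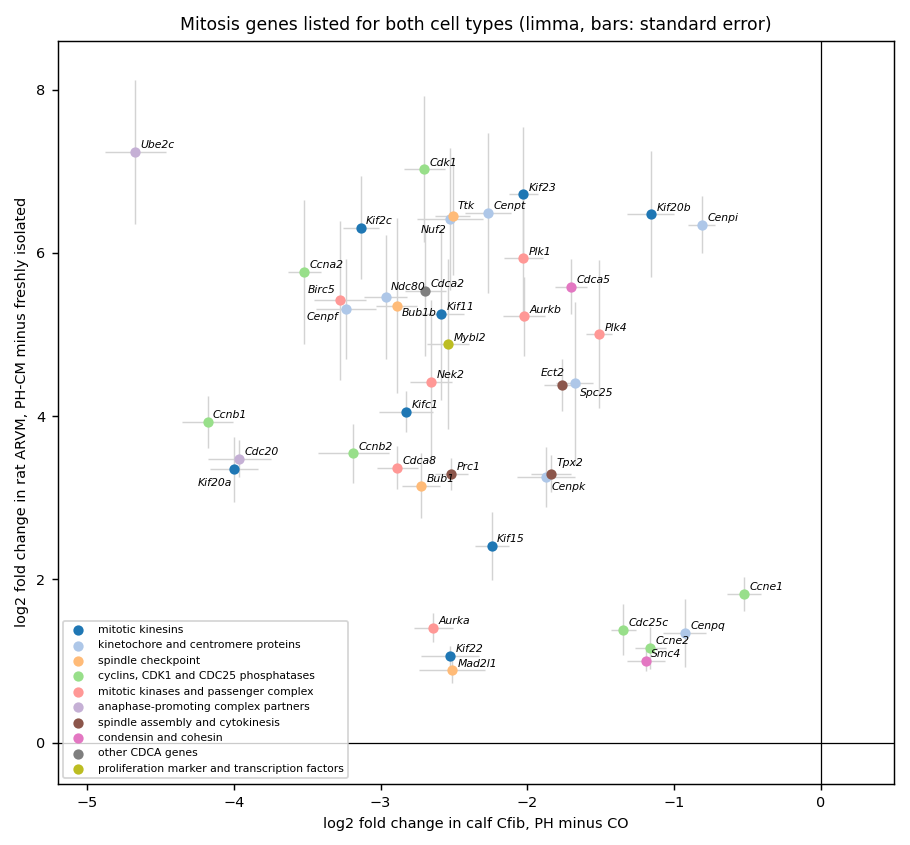
Log2 fold change in ARVM (vertical axis) against that in Cfib (horizontal axis) for the 43 genes listed for both cell types, coloured by role, with limma standard errors as bars. All 43 points lie in the upper left, higher in PH-CM ARVM and lower in PH Cfib; the heights of Cdca5 and Cenpi, without control reads, depend on the 1 added before the logarithm.

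Other genes of mitosis and the cell cycle were taken from a list of 143 symbols that the rule does not meet. In ARVM 86 were listed and all passed, as did 97.6% of all listed genes, with 68 higher (79.1%) and 18 lower against 53.9% and 43.7% of all listed genes, and the median log2FC was 1.82 against 0.37. Melk, a kinase of dividing cells, was without reads in freshly isolated ARVM and at least 100.6-fold higher in PH-CM ARVM. Kntc1 of the kinetochore rose by 6.68 (7.36 without con6) and Top2a, which untangles DNA, by 6.57. In 15 of the 86 the fold moved by over 1.5 times without con4, con5 or con6. All 14 listed outer kinetochore partners and all 7 cytokinesis genes were higher. The 18 that were lower were Smc1a, Tacc2, Haus8, Nde1, Ndel1, Wee1, Cks1b, Anapc13, Cdc27, Top2b, E2f4, E2f6, Lin54, Nfyc, Ccnd2, Cdk2, Ccng1 and Ccnh, and the largest fall among them was that of Wee1, a kinase that holds CDK1 inactive (log2FC −1.22, limma adjusted p = 4.32e-05). In Cfib 46 were listed and all passed, as did 97.5% of all listed genes, with 41 lower (89.1%) and 5 higher against 39.4% and 58.2% of all listed genes, and a median of −1.82 against 0.33. On the log2(value + 1) scale the largest falls were those of FAM64A (log2FC −4.02), SHCBP1 (−3.64) and NUSAP1, a spindle protein (−3.61). By means the order was SHCBP1 (31.7-fold lower), FAM64A (30.8-fold), SPAG5 (25.7-fold) and NUSAP1 (20.3-fold). The 5 that were higher were CDKN1C (1.82), CDKN2B (0.95), PTTG1, which encodes securin (0.66), CCND2 (0.52) and NDEL1 (0.47).

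Inhibitors of cyclin-dependent kinases, which brake the cycle, were higher in PH-CM ARVM together with the division genes. In PH Cfib, where the division genes were lower, some were higher and some lower. In ARVM, Cdkn1c, which encodes p57, was at 52.3 ± 15.5 (SD, n = 3) normalized counts in freshly isolated and 1002 ± 129.7 in PH-CM cells, a log2FC of 4.27 (limma adjusted p = 2.52e-06). Cdkn2b rose by 2.38, Cdkn2c by 1.38 and Cdkn1a by 0.71, and Cdkn2a, without reads in freshly isolated ARVM, was at least 13.4-fold higher. In Cfib, CDKN1C went from 3.13 ± 0.771 to 13.4 ± 1.75 and CDKN2B from 10.4 ± 1.90 to 20.8 ± 0.352 while the division genes were lower. CDKN1A (log2FC −0.40) and CDKN3 (−2.86, from 16.2 ± 4.01 to 1.33 ± 0.176) were lower with the division genes. Cdkn3 rose in ARVM by 6.17, or 7.65 without con4 and 5.43 without con5 or con6. Pttg1, higher in PH Cfib, rose in ARVM too, by 6.41 (7.38 without con5).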

How the data were processed

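RNA sequencing of 12 libraries in 4 groups of 3 was used. Per the study's methods, the authors sequenced ribosome-depleted RNA, aligned reads to BosTau8 and RN6 with HISAT2 and StringTie, normalized with DESeq2 (versions not given in the sources used here), and selected genes by a p-value. The values are a signal that the authors deposited after normalization. For ARVM it is reads divided by a size factor of 0.632 to 1.32, since 100% of values were whole multiples of 1 step per library (within 0.01 reads). For Cfib it was read as scaled by length and library, in a unit that was not settled, so its depth is unknown. The number of libraries and counting error limit precision.

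Each table was fitted whole with limma 3.58.1 (R 4.3.3, trend, pseudocount 1, threshold 0.05), in place of the study's own test per gene. Fold changes on log2(value + 1) understate those of low genes. Other settings were pseudocounts of 0.1 and 10, a minimum mean of 5 (Cfib) or 50 (ARVM), the median of ratios, no trend, each library left out, a replicate block and averaged PH libraries (Cfib), a log2 fold change of at least 1 and, on ARVM reads, edgeR 4.0.16 and DESeq2 1.42.0. Members, roles, lists and motifs were chosen with earlier results of these data known. Genes named were all members in both tables, the 2 largest changes per role where the higher group averaged 10 or more, all against the majority and all not called. Of the other mitosis genes the 3 largest changes in each table and all against the majority were named, and further members and the CDK inhibitors were added after their values were seen. No bovine annotation was used. Replicates differed beyond sampling noise in ARVM (chi-square per gene 11.2 to 38.4). The fits were tested on simulated data.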

Additional observations from a re-analysis of the deposited data

How the results depend on the processing

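No member changed direction under any setting tried. The groups did not overlap in 100% of the listed genes of either cell type. Leaving out or averaging libraries, blocking, dropping the trend or another pseudocount could therefore not turn a direction. When a log2 fold change of at least 1 was also required, the members called higher in PH Cfib went from 1 to 0 and those called lower in PH-CM ARVM from 9 to 1, because most of these changes were smaller than that. The median log2 fold change of the Cfib members was −2.85 with a pseudocount of 0.1, −1.0 with 10 and −2.59 after the median of ratios, and −2.50 to −2.31 with 1 library left out. That of the ARVM members was 2.80 with a pseudocount of 10. Calls were lost for CCNE1 and MAD2L1BP in Cfib and for Ncaph2, Cenpj, Cdc25a and Cenpq in ARVM, as given above; the cause was not tested. A minimum mean left 47 Cfib and 64 ARVM members to be tested. With the replicate block, 54 Cfib members were called lower and 1 higher, as without it. Deviations of libraries of equal number correlated at 0.258, 0.0312 and 0.259, 5 of the 6 libraries correlated best with the one of their own number, a hint from the data alone, and nothing in the design says that the numbers pair libraries. The ARVM groups share no replicate numbers. Depth limits the genes with few or no reads in freshly isolated ARVM, whose folds depend on the pseudocount, and the depth of the Cfib libraries is unknown.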
